A study of Mus musculus with 20 samples.

Results

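Mdga1, Mdga2 and 4 genes of the Caspr family (Cntnap1, Cntnap2, Cntnap4 and Cntnap5a) encode cell-surface proteins through which neurons contact other cells. The 6 genes were taken by name from the 55487 genes of the deposited count table, and each matched 1 identifier. They were followed through 20 RNA libraries from mice at postnatal day 1. Each library is labelled as subcerebral projection neurons, the cortical neurons that send axons to the brainstem and spinal cord. The design crossed genotype with compartment, with 5 libraries in each of 4 groups. WT somata and somata labelled Bcl11b KO came from cortex. WT growth cones and growth cones labelled Bcl11b KO, the tips of growing axons, came from brainstem and spinal cord. Bcl11b encodes a transcription factor of these neurons, and the KO is described as a null. The labels name no allele, Cre driver or sorting marker, and they do not say which libraries share animals. All p-values therefore measure the spread between libraries, which may be partly technical. Libraries are named by the experiment number of their label. Growth cone and soma libraries share no experiment number, and their RNA inputs had different ranges. Differences between compartments therefore cannot be told apart from differences between experiments or in RNA input.

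MDGA proteins are GPI-anchored immunoglobulin-domain proteins of the neuronal membrane. They bind neuroligins, the postsynaptic partners of neurexins, and can keep neurexins from reaching them. Caspr proteins (contactin-associated proteins) are single-pass membrane proteins related to neurexins. Cntnap1 joins contactin 1 on axons at the paranodes of myelinated fibres, where it faces neurofascin of the myelinating glia. Cntnap2 works with contactin 2 and band 4.1 proteins to gather Kv1 potassium channels next to the paranodes, and it is made before myelin forms. Cntnap4 has been studied at synapses of interneurons and dopamine neurons. The roles of the Cntnap5 genes are less well known.

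Depth ran from 18962308 to 36059112 counts per library in WT somata, from 35243688 to 51205154 in somata labelled KO, from 26382991 to 29323028 in WT growth cones and from 21657575 to 27723067 in their counterparts labelled KO. Levels are in CPM, counts scaled to the size of the library. Bcl11b itself averaged 700.4 ± 130 CPM (SD, n = 5) in WT somata, and somata labelled KO averaged 1151 ± 56.6. These groups did not overlap, and the log2 difference was 0.74 (two-sided exact permutation p = 0.00794, which is the lowest possible with 5 against 5). Counts of the targeted gene thus go against the soma labels. In growth cones Bcl11b averaged 101 ± 19.3 CPM in WT and 102 ± 35.0 in those labelled KO (log2 difference -0.03, exact permutation p = 0.944). Which exons a deletion would remove is not given in the sources used here, so counts over the whole gene may not test the label. Every genotype direction below is drawn between libraries as labelled.

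Marker sums of several cell types differed between the compartments. The 6 markers of subcerebral projection neurons summed to 1879 to 2207 CPM (WT) and 2245 to 2427 CPM (labelled KO) in somata, and to 666 to 864 CPM (WT) and 618 to 941 CPM (labelled KO) in growth cones. Without Bcl11b the other 5 summed to 1322 to 1501 CPM in WT somata and to 1162 to 1290 CPM in those labelled KO, so the targeted gene sets the order of the soma sums. Among them Crym averaged 195.5 CPM in WT somata and 43.1 in those labelled KO, Pcp4 40.6 and 11.3, and Ldb2 634 and 501. Sox5, at 262 and 334 CPM, and Fezf2, at 284 and 340, went the other way. Between compartments Pcp4 went against the sum, at 317 CPM in WT growth cones and 296 in those labelled KO. The 8 hindbrain and spinal cord markers summed to at most 0.181 CPM (WT) and 0.0586 CPM (labelled KO) in somata, with Chat at 0. In growth cones they summed to 62.2 to 136 CPM (WT) and 47.2 to 188 CPM (labelled KO), with 7 of 8 above a mean of 1 CPM and Chat at 0 in WT. Oligodendrocyte markers (8 genes, led by Mbp) reached 63.8 to 114 CPM (WT) and 77.3 to 118 CPM (labelled KO) in somata, against 575 to 2366 CPM (WT) and 582 to 1698 CPM (labelled KO) in growth cones. Interneuron markers (8 genes) summed to 115 to 185 CPM (WT) and 382 to 525 CPM (labelled KO) in somata, and to 644 to 830 CPM (WT) and 622 to 910 CPM (labelled KO) in growth cones. Npy made up most of the soma sums, at a mean of 105.5 CPM in WT and 443 CPM in those labelled KO. Without Npy the other 7 summed to 17.8 to 59.0 CPM (WT) and 11.4 to 52.4 CPM (labelled KO) in somata, and to at least 465 CPM in every growth cone library. Sums of 6 astrocyte, 7 vessel and blood and 3 choroid plexus markers were also higher in every growth cone library than in any soma library, choroid plexus at 226 CPM or more against 1.88 or less. The 5 callosal neuron markers, led by Ptn, likewise summed to 668 CPM or more in growth cones and 377 or less in somata. The compartments overlapped for 6 microglia markers (3.29 to 89.1 CPM in somata, 11.004 to 114 in growth cones) and for 4 corticothalamic markers (103 to 397 against 147 to 369 CPM). The part of these cell types in the compartment differences below was not tested. In bulk RNA, fewer cells of a type and less RNA per cell cannot be told apart.

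Between compartments the 6 genes went in opposite directions within each family. Over all 20 libraries with genotype as a covariate, Mdga1, Cntnap1 and Cntnap2 were higher in growth cones, and Mdga2, Cntnap4 and Cntnap5a were lower (edgeR quasi-likelihood test, Benjamini-Hochberg false discovery rate, FDR, under 0.05). All 6 members were called, where 53.0% of the 17645 genes tested were called in either direction, 28.9% higher and 24.1% lower. Being called was therefore common in this comparison, and Cntnap1 passed the low-count filter through growth cones alone. The members' median log2 fold change was -0.12, beside 0.12 for all genes tested. Of the 6 genes, Cntnap5a alone had no overlap of single libraries between the 10 growth cone and the 10 soma libraries, and 21.0% of all tested genes had none.

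**Figure D1:**
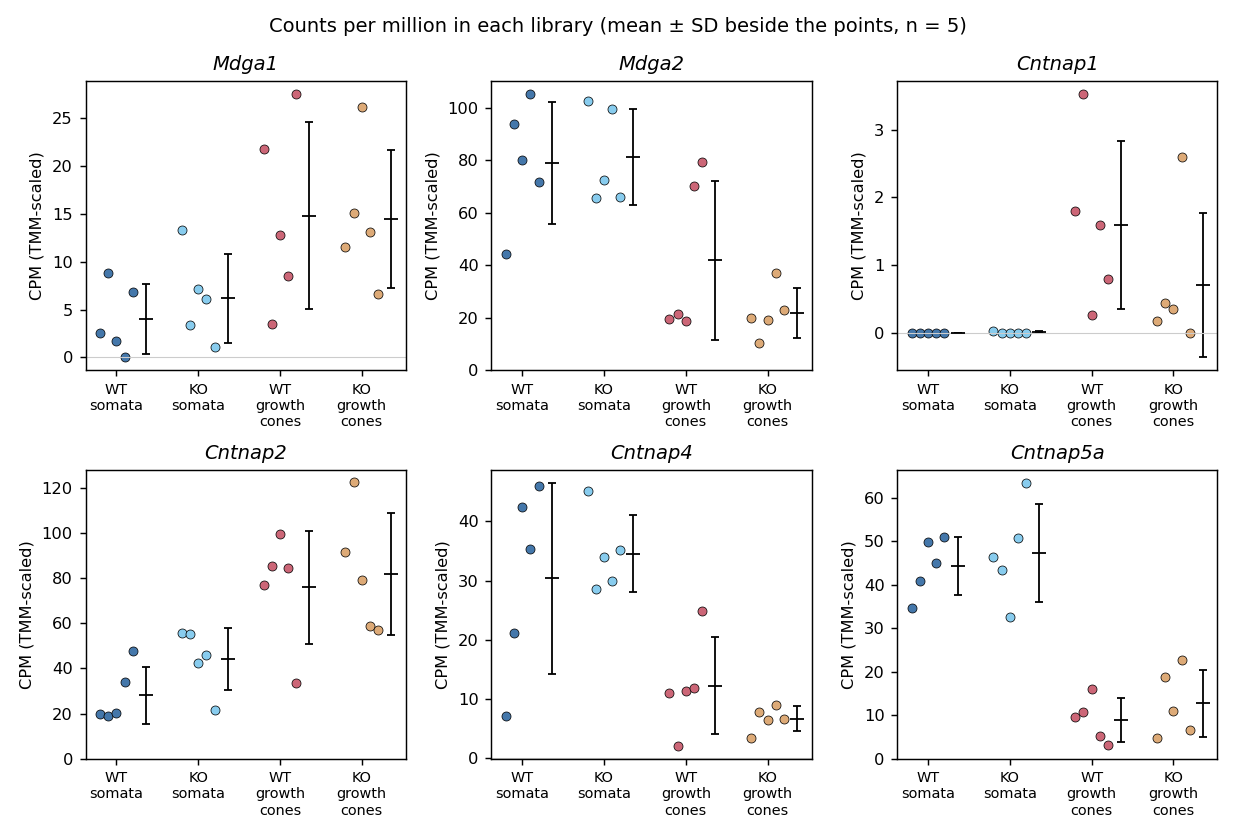
Level of each of the 6 genes in every library (CPM, scaled by TMM), by group, with points for libraries and a bar for the group mean and SD (n = 5) beside them. Cntnap5a in growth cones, at 3.03 to 22.6 CPM, lies below all somata, and Cntnap1 is near 0 in all somata.

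The MDGA genes are taken first. Mdga1 lies at chr17:29827949-29970087 on the minus strand (GRCm38, gene ENSMUSG00000043557.16) with 9515 bases of exon. Mdga2 lies at chr12:66466060-67222549 on the minus strand (ENSMUSG00000034912.18) with 18336 bases of exon. Of the Mdga2 exon bases, 9% overlap Gm19001 on the other strand, and whether counting used strand is not given in the sources used here.

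Mdga1 was a low transcript that varied widely between libraries. In WT somata it stood at 2.51, 8.83, 1.72, 0.0599 and 6.83 CPM in libraries 12, 14, 22, 25 and 26, the fourth of these from 2 counts. Somata labelled KO gave 13.3, 3.33, 7.10, 6.13 and 1.06 CPM in libraries 14, 15, 22, 25 and 26. Library 14 was the highest of each soma group, and the genotypes overlapped. In WT growth cones the levels were 21.8, 3.46, 12.7, 8.52 and 27.5 CPM in libraries 7 to 11. Growth cones labelled KO gave 11.5, 15.04, 26.1, 13.1 and 6.65 CPM in libraries 7 to 11. Of the 10 growth cone libraries, 4 exceeded the highest soma library. Means were 14.6 ± 8.11 CPM in growth cones and 5.08 ± 4.11 in somata (SD, n = 10), a ratio of 2.88. The log2 fold change was 1.56 ± 0.593 (SE, edgeR, 95% interval 0.33 to 2.80, FDR 0.0316). Without growth cone library 9 labelled KO the edgeR FDR was 0.0527, and over all 24 alternatives it was 0.00398 to 0.0527.

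Mdga2 exceeded Mdga1 in every soma library on CPM per kilobase of exon. In WT somata it stood at 44.2, 93.7, 80.1, 106 and 71.7 CPM in libraries 12, 14, 22, 25 and 26. The soma libraries labelled KO held 103, 65.8, 72.5, 99.6 and 66.1 CPM in libraries 14, 15, 22, 25 and 26. The soma groups overlapped. WT growth cones held 19.4, 21.5, 18.8, 70.3 and 79.5 CPM in libraries 7 to 11. Those labelled KO held 19.8, 10.3, 18.9, 36.9 and 23.1 CPM in libraries 7 to 11. WT growth cone libraries 10 and 11 lay within the soma range, and the other 8 growth cone libraries lay below every soma library. The means were 31.9 ± 23.7 CPM in growth cones and 80.2 ± 19.9 in somata (SD, n = 10), 2.52-fold lower in growth cones. The log2 fold change was -1.40 ± 0.311 (SE, edgeR, 95% interval -2.05 to -0.76, FDR 0.000686).

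Relative to one another the MDGA genes differed by compartment. On CPM per kilobase of exon, Mdga1 made up 8.97% ± 6.85 of the MDGA sum in WT somata and 11.7% ± 6.53 in those labelled KO (SD, n = 5). It made up 41.5% ± 21.1 in WT growth cones and 55.1% ± 17.7 in growth cones labelled KO. The lowest growth cone share in those labelled KO, 35.7%, exceeded the highest soma share there, 19.9%. In WT the lowest growth cone share was 18.9% and the highest soma share 15.5%. The summed level of both genes was 4.73 ± 1.33 CPM per kilobase in WT somata and 3.84 ± 2.23 in WT growth cones. It was 5.09 ± 1.41 in somata labelled KO and 2.71 ± 0.815 in growth cones labelled KO.

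**Figure D2:**
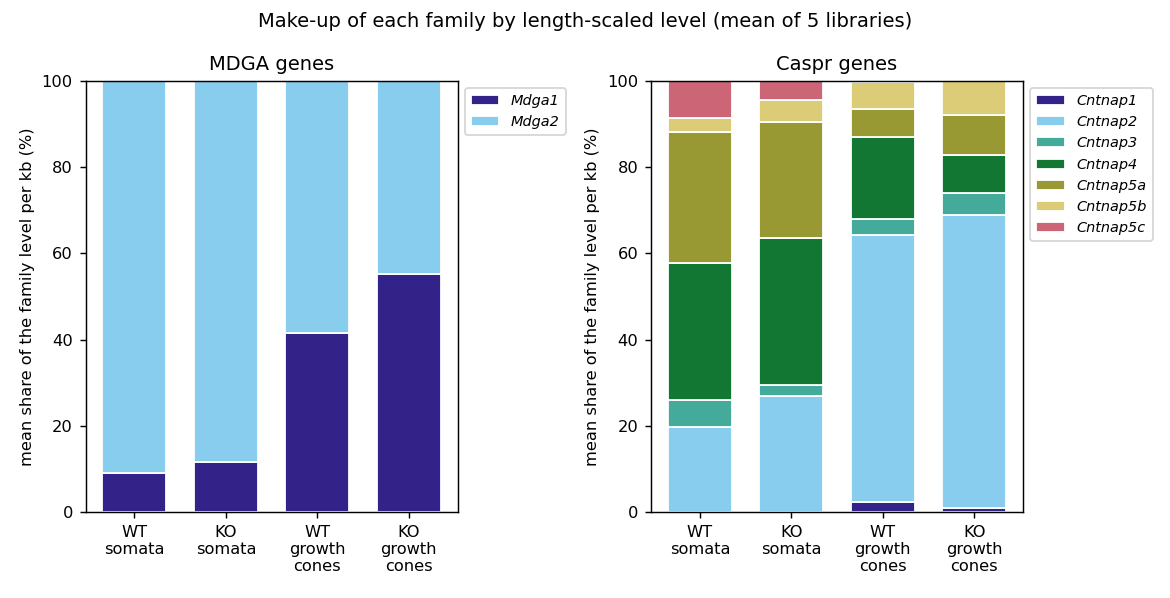
Share of each gene in the summed level of its family (percent of summed CPM per kilobase of exon), for the MDGA genes and the Caspr genes, drawn as stacked bars of the mean over the 5 libraries of each group. Mdga1 takes 8.97% of the MDGA sum in WT somata and 41.5% in WT growth cones, and Cntnap2 takes 19.8% and 62.0% of the Caspr sum.

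Of the Caspr genes, Cntnap1 encodes the paranodal protein. It lies at chr11:101170523-101190724 on the plus strand (GRCm38, ENSMUSG00000017167.6), with 5875 bases of exon, of which 3.97% overlap Plekhh3 on the other strand. In WT somata it had 0 counts in each of the 5 libraries. Somata labelled KO had 1 count in library 14 and 0 in the other 4. WT growth cones had 54, 97, 8, 48 and 25 counts in libraries 7 to 11, which is 1.80, 3.53, 0.263, 1.59 and 0.798 CPM. Growth cones labelled KO had 4, 12, 10, 81 and 0 counts in libraries 7 to 11, which is 0.166, 0.434, 0.346, 2.59 and 0 CPM. The gene was thus detected in 9 of 10 growth cone libraries at low counts, and 1 of 10 soma libraries held a single count.

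The low-count filter left Cntnap1 out of the fits within 1 genotype. WT growth cones were at least 16.6-fold higher than WT somata, taking a floor of 3 counts per library in somata (counting error only). The difference of mean log2(CPM + 0.5) was 1.85 (two-sided exact permutation p = 0.00794). In libraries labelled KO the summed counts were 107 in growth cones and 1 in somata, a ratio of 181 after scaling to the library totals (95% counting interval 31.7 to 7203), and 55.9 (9.18 to 2291) without growth cone library 10. There the difference of mean log2(CPM + 0.5) was 0.93 (exact permutation p = 0.0476). Leaving out any 1 of the somata labelled KO raised that exact p to 0.0873. Cntnap1 entered the fit of all 20 libraries through growth cones alone, so only a call of higher in growth cones was open to it. That fit called it (edgeR FDR 6.3e-06), which adds no support for the direction. Library 10 held 81 of the 107 counts of growth cones labelled KO, and without it the log2 difference in those libraries was 0.50. Oligodendrocyte and hindbrain marker sums were also higher in growth cones, and their part in the Cntnap1 counts was not tested.

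Cntnap2, the juxtaparanodal Caspr, spans 2244857 bases at chr6:45059357-47304213 on the plus strand (GRCm38, ENSMUSG00000039419.17), with 10248 bases of exon. In WT somata it stood at 19.7, 18.8, 20.1, 34.1 and 47.6 CPM in libraries 12, 14, 22, 25 and 26. Libraries 14, 15, 22, 25 and 26 of somata labelled KO stood at 55.9, 55.1, 42.6, 46.0 and 21.5 CPM. Libraries 14 and 15 labelled KO exceeded every WT soma library, and library 26 labelled KO lay within the WT range. In WT growth cones the levels were 77.0, 85.3, 99.7, 84.4 and 33.8 CPM in libraries 7 to 11. Growth cones labelled KO stood at 91.8, 123, 79.2, 58.7 and 57.0 CPM in libraries 7 to 11. Apart from WT growth cone 11, the 9 other growth cone libraries exceeded every soma library. Means were 79.0 ± 24.8 CPM in growth cones and 36.1 ± 15.1 in somata (SD, n = 10), a ratio of 2.18. The log2 fold change was 1.17 ± 0.242 (SE, edgeR, 95% interval 0.66 to 1.67, FDR 0.000377).

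Cntnap4, the Caspr studied at synapses, lies at chr8:112570043-112882717 on the plus strand (GRCm38, ENSMUSG00000031772.17), with 6281 bases of exon, of which 8.01% overlap Gm45904 on the other strand. WT somata stood at 7.02, 21.0, 42.4, 35.3 and 46.0 CPM in libraries 12, 14, 22, 25 and 26. Somata labelled KO stood at 45.2, 28.6, 33.9, 30.0 and 35.1 CPM in libraries 14, 15, 22, 25 and 26. WT soma 12 was the lowest soma library. WT growth cones stood at 10.9, 2.07, 11.2, 11.9 and 24.9 CPM in libraries 7 to 11. Those labelled KO stood at 3.35, 7.66, 6.47, 8.99 and 6.52 CPM in libraries 7 to 11. Growth cones labelled KO lay below all somata labelled KO, while in WT the compartments overlapped. Means were 9.40 ± 6.35 CPM in growth cones and 32.5 ± 11.8 in somata (SD, n = 10), 3.45-fold lower in growth cones. The log2 fold change was -1.85 ± 0.385 (SE, edgeR, 95% interval -2.65 to -1.05, FDR 0.000379). The interneuron marker sum was higher in growth cones with and without Npy, and its part in the Cntnap4 counts was not tested.

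Cntnap5a, 1 of 3 Cntnap5 genes of the mouse, lies at chr1:115684756-116587323 on the plus strand (GRCm38, ENSMUSG00000070695.4), with 10945 bases of exon. Of its 50-base exon words, 0.964% occur in another gene, chiefly Cntnap5b and Cntnap5c, so few reads could be shared with these relatives. Levels in WT somata were 34.7, 40.7, 49.7, 45.0 and 50.9 CPM in libraries 12, 14, 22, 25 and 26. Levels in somata labelled KO were 46.3, 43.3, 32.4, 50.7 and 63.4 CPM in libraries 14, 15, 22, 25 and 26. The soma groups overlapped. Levels in WT growth cones were 9.61, 10.7, 15.9, 5.17 and 3.03 CPM in libraries 7 to 11. Levels in growth cones labelled KO were 4.68, 18.7, 11.03, 22.6 and 6.65 CPM in libraries 7 to 11. All 10 growth cone libraries lay below all 10 soma libraries. Means were 10.8 ± 6.45 CPM in growth cones and 45.7 ± 8.88 in somata (SD, n = 10), 4.23-fold lower in growth cones. The log2 fold change was -2.10 ± 0.309 (SE, edgeR, 95% interval -2.74 to -1.46, FDR 7.45e-06).

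Within the Caspr family the gene with the highest mean share differed by compartment, Cntnap4 in somata and Cntnap2 in growth cones. This did not hold in every library. In WT growth cone 11 Cntnap4 led, at 3.97 CPM per kilobase against 3.29 for Cntnap2. In WT soma 12 Cntnap5a led, at 3.17 against 1.12 for Cntnap4. On CPM per kilobase, Cntnap2 made up 19.8% ± 6.31 of the Caspr sum in WT somata and 26.8% ± 7.97 in those labelled KO (SD, n = 5). It made up 62.0% ± 12.3 in WT growth cones and 68.0% ± 18.6 in growth cones labelled KO. Its lowest share in growth cones, 38.5%, exceeded its highest in somata, 33.1%. Cntnap5a took 30.4% and 26.9% in the soma groups, WT first, and 6.57% and 9.08% in the growth cone groups. Cntnap4 took 31.7% and 34.0% in somata, and 19.1% and 8.89% in growth cones. The sum over the family was 14.1 ± 4.50 CPM per kilobase in WT somata and 16.2 ± 2.41 in those labelled KO. For growth cones it was 11.7 ± 2.78 in WT and 12.01 ± 3.07 in libraries labelled KO. These shares sum to a fixed total, so a higher share of 1 gene lowers the others.

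Among all MDGA and Caspr genes, the order of levels per kilobase was led in WT somata by Cntnap4 at 4.83 ± 2.57, Mdga2 at 4.31 ± 1.28, Cntnap5a at 4.04 ± 0.611 and Cntnap2 at 2.74 ± 1.23 CPM per kilobase (SD, n = 5). The same 4 genes led in somata labelled KO, at 5.504, 4.44, 4.32 and 4.31 CPM per kilobase. Neighbours among these 4 overlapped in single libraries in both soma groups. In WT growth cones Cntnap2 led at 7.42 ± 2.44, followed by Mdga2 at 2.29 ± 1.65, Cntnap4 at 1.94 ± 1.30, Mdga1 at 1.56 ± 1.03 and Cntnap5a at 0.812 ± 0.460, and each neighbouring pair overlapped. In growth cones labelled KO Cntnap2 led at 7.99 ± 2.64, with no overlap with Mdga1 at 1.52 ± 0.759. Behind Mdga1 came Mdga2 at 1.19, Cntnap5a at 1.16, Cntnap5b at 1.12 ± 1.85 and Cntnap4 at 1.05 CPM per kilobase, all overlapping their neighbours. Cntnap1 was at 0.272 ± 0.212 in WT growth cones and 0.120 ± 0.182 in those labelled KO.

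The other 3 Caspr genes, Cntnap3, Cntnap5b and Cntnap5c, varied widely between libraries. Cntnap3 averaged 5.92 CPM (WT) and 2.77 CPM (labelled KO) in somata, and 3.03 and 3.60 CPM in growth cones. Cntnap5b averaged 2.61 and 4.63 CPM in somata, and 4.18 and 5.81 CPM in growth cones, WT first. Neither was called between compartments (edgeR FDR 0.817 and 0.740 over all 20 libraries). Cntnap5c was called lower in growth cones (edgeR FDR 0.000387), having passed the low-count filter through somata alone. Its summed counts were 611 in WT somata and 10 in WT growth cones, a ratio of 54.4 after scaling to the library totals (95% counting interval 29.4 to 114). WT soma 14 held 386 of the 611 counts, and without it the ratio was 25.7 (13.7 to 54.4). WT somata 22 and 25 held 1 and 0 counts, and soma 25 labelled KO held 2. The WT compartments thus overlapped in single libraries, and the pooled ratios do not hold for every soma library. WT growth cone 7 held all 10 growth cone counts, and leaving it out put somata at least 38.3-fold higher. Somata labelled KO held 566 counts and growth cones labelled KO 0, so somata were higher by at least 22.3-fold, taking 3 counts per growth cone library as the limit.

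The compartment comparison was also made within each genotype. In WT, Cntnap2 was higher in growth cones and Cntnap5a lower, and Mdga1, Mdga2 and Cntnap4 were not called. That is 2 of 5 members tested, where 42.8% of 15128 genes were called (23.1% higher, 19.7% lower). The WT log2 fold change of Cntnap2 was 1.49 ± 0.351 (SE, edgeR FDR 0.00482), and that of Cntnap5a was -2.27 ± 0.428 (edgeR FDR 0.00113), or 4.98-fold lower. Cntnap5a was the 1 of these 5 without overlap in WT, where 37.9% of genes had none. For Mdga1 the WT log2 fold change was 1.95 (95% interval -0.15 to 4.05, edgeR FDR 0.123, and 0.0466 to 0.235 over 15 alternatives, the lowest with DESeq2). For Mdga2 it was -0.87 (interval -1.85 to 0.12, edgeR FDR 0.144). Without WT growth cone 11 it was -1.24 with an edgeR FDR of 0.0413, and the alternatives ranged from 0.0413 to 0.302. For Cntnap4 it was -1.26 (interval -2.62 to 0.09, edgeR FDR 0.122, and 0.0463 to 0.235 over the alternatives, the lowest in the fit of all 20 libraries).

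Among libraries labelled KO, growth cones had more Cntnap2, and Mdga2, Cntnap4 and Cntnap5a were lower. That is 4 of 5 members tested, where 38.6% of 15410 genes were called (21.6% higher, 17.0% lower). The same 4 had no overlap of single libraries, where 36.9% of genes had none. Cntnap4 showed the largest fitted decrease of the 5, with a log2 fold change of -2.31 ± 0.363 (SE, edgeR FDR 0.000419), or 5.24-fold lower. Mdga2 was 3.73-fold lower (log2 -1.82 ± 0.321, edgeR FDR 0.000879) and Cntnap5a was 3.71-fold lower (log2 -1.81 ± 0.442, edgeR FDR 0.00668). Cntnap2 was higher by a log2 fold change of 0.97 ± 0.304 (edgeR FDR 0.0248). This Cntnap2 call was lost in 5 of 15 alternatives, where the edgeR FDR was above 0.05. These were the fits without soma 22 or 25 labelled KO, without growth cone 7 or 8 labelled KO, and without the low-count filter. Over all 15 the FDR ranged from 0.00421 to 0.0710. Mdga1 was not called (log2 1.31, interval -0.16 to 2.78, edgeR FDR 0.148).

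**Figure D3:**
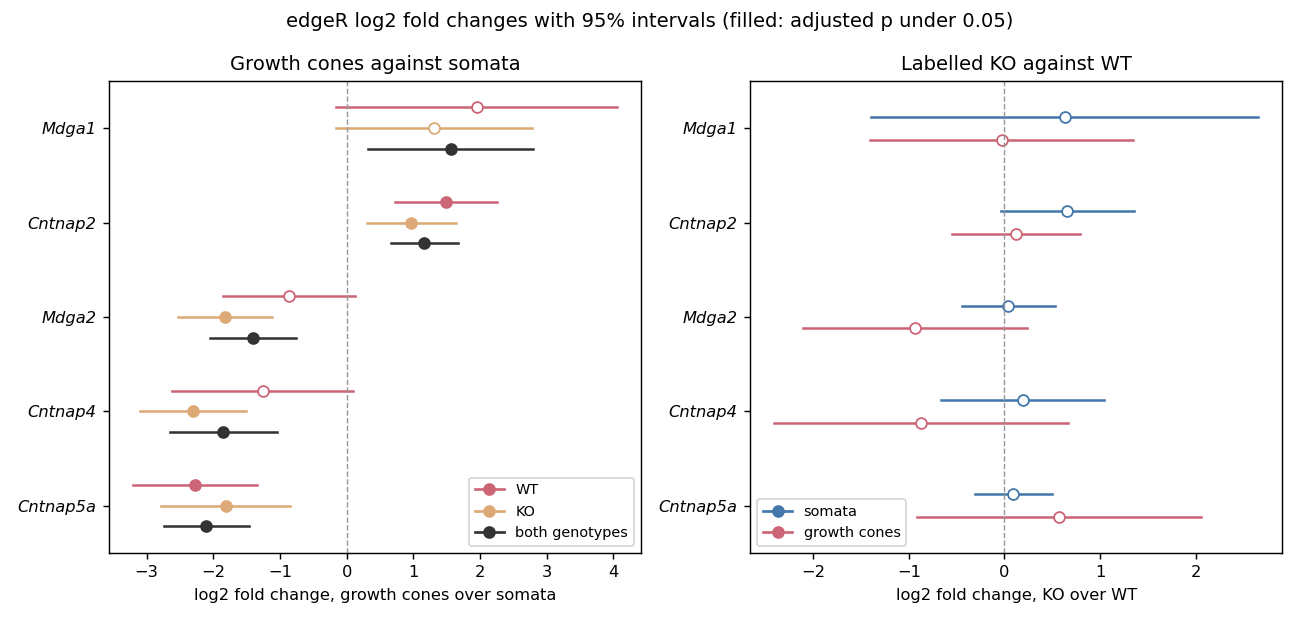
Log2 fold changes of the members from edgeR with 95% intervals, between compartments (left) and between genotypes (right), without Cntnap1, and with filled points for FDR under 0.05. In the compartment comparison over all 20 libraries Mdga2, Cntnap4 and Cntnap5a lie below 0 and Mdga1 and Cntnap2 above it, while all genotype intervals cross 0.

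No member was called between genotypes. In somata the edgeR test called 0 of 5 members, where 0.731% of 14911 genes were called. At an unadjusted p under 0.05 it called 0 members and 1278 genes, and DESeq2 called 0 members and 393 genes. The lowest p among the members was that of Cntnap2, at 44.2 ± 13.9 CPM in somata labelled KO and 28.1 ± 12.6 in WT (SD, n = 5). Its log2 fold change was 0.66 (95% interval -0.04 to 1.35, edgeR FDR 0.629). The interval for Mdga2 was -0.45 to 0.53 and that for Cntnap5a was -0.31 to 0.49 on the log2 scale, the narrowest of these. For Cntnap4 it was -0.66 to 1.04 and for Mdga1 -1.39 to 2.65, so a change of several-fold in Mdga1 could not be seen with this spread. Cntnap1, with 1 count in all, was left out of this fit. The exact permutation test cannot decide there, since every regrouping of 5 against 5 gives a difference of the same size. Library totals, Npy and the sum of 4 corticothalamic markers (279 to 397 CPM against 103 to 220 in WT, with Tle4 at a mean of 165 against 46.9) were also higher in somata labelled KO. Their part was not tested.

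In growth cones the edgeR test called 0 of 6 members between genotypes, where 0% of 15419 genes were called. At an unadjusted p under 0.05 it called 0 members and 329 genes, and DESeq2 called 0 members and 11 genes. Mdga2 averaged 41.9 ± 30.3 CPM in WT and 21.8 ± 9.66 in growth cones labelled KO, a log2 fold change of -0.94 (95% interval -2.10 to 0.23, edgeR FDR 0.999). Without WT growth cone 11 that fold change was -0.57. Cntnap4 averaged 12.2 ± 8.17 and 6.60 ± 2.09 CPM, a log2 fold change of -0.87 (interval -2.41 to 0.66). Cntnap1 differed by -1.08 (interval -3.54 to 1.39), by -2.70 without growth cone 10 labelled KO and by -0.61 without WT growth cone 8. The difference was for Cntnap5a 0.57 (interval -0.92 to 2.06), for Cntnap2 0.12 (interval -0.55 to 0.79) and for Mdga1 -0.03 (interval -1.40 to 1.35). The groups overlapped for all 6 genes, and 0.532% of genes had no overlap.

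An interaction term tested whether compartments differed in the genotype difference itself. The edgeR test called 0 of 6 members, where 0.0397% of 17645 genes were called. At an unadjusted p under 0.05 it called 0 members and 1231 genes, and DESeq2 called 0 members and 262 genes. The lowest adjusted p among the members was that of Mdga2, with an interaction of -0.98 on the log2 scale (95% interval -2.19 to 0.22, edgeR FDR 0.863). That Mdga2 and Cntnap4 passed the threshold between compartments in libraries labelled KO and not in WT is therefore not shown to be a difference between genotypes. The interaction was -1.07 for Cntnap4 (interval -2.57 to 0.42) and -0.55 for Cntnap2 (interval -1.54 to 0.44). For Cntnap1 it was -2.36 (interval -5.68 to 0.95), for Mdga1 -0.66 (interval -3.11 to 1.79) and, in the other direction, for Cntnap5a 0.42 (interval -0.83 to 1.68).

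Neuroligin and neurexin genes, whose proteins MDGA proteins bind or keep apart, were compared between compartments in the same fit. Of 5 genes, 2 were higher in growth cones, 2 were lower and 1 was not called, where 53.0% of all genes tested were called. Nlgn2, the neuroligin of inhibitory synapses, averaged 49.9 ± 11.1 CPM in growth cones and 9.91 ± 2.93 in somata (SD, n = 10), with no overlap. Its log2 fold change was 2.34 ± 0.203 (SE, edgeR FDR 4.47e-09). Nlgn1, the neuroligin of excitatory synapses, averaged 49.5 ± 27.2 CPM in growth cones and 163 ± 26.5 in somata, also with no overlap (log2 -1.75 ± 0.318, edgeR FDR 9.44e-05). Nlgn3, found at both kinds of synapse, was lower in growth cones (log2 -1.46 ± 0.267, edgeR FDR 9.66e-05), and the presynaptic neurexin gene Nrxn3 was higher (log2 1.33 ± 0.197, edgeR FDR 8.39e-06). Nrxn2 was not called (edgeR FDR 0.934). The same 4 partners were called in the same directions in WT and in libraries labelled KO.

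Of 9 genes whose proteins work with Casprs, 1 was higher in growth cones, 4 were lower and 4 were not called, a share near the 53.0% of all genes. Cntn1, the contactin that binds Cntnap1, averaged 100.5 ± 31.6 CPM in growth cones and 360.4 ± 92.9 in somata (SD, n = 10), with no overlap (log2 -1.83 ± 0.203, edgeR FDR 1.64e-07). Its direction was thus opposite to that of Cntnap1. Cntn2, the contactin that binds Cntnap2, averaged 44.5 ± 19.5 and 77.7 ± 21.1 CPM (log2 -0.85 ± 0.223, edgeR FDR 0.00308), also opposite to Cntnap2. Adam22, a neuronal surface protein found with Kv1 channels, was lower at 19.8 ± 9.18 against 86.3 ± 24.8 CPM (log2 -2.11 ± 0.257, edgeR FDR 6.16e-07). The scaffold gene Dlg4 was higher at 43.4 ± 18.6 against 18.6 ± 5.10 CPM (log2 1.24 ± 0.265, edgeR FDR 0.000479). Nfasc was the fourth gene that was lower (edgeR FDR 0.0294), a call lost in 14 of 24 alternatives, with FDR values up to 0.239. The Kv1 genes Kcna1 and Kcna2, the channel subunit gene Kcnab2 and the band 4.1 gene Epb41l3 were not called.

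**Figure D4:**
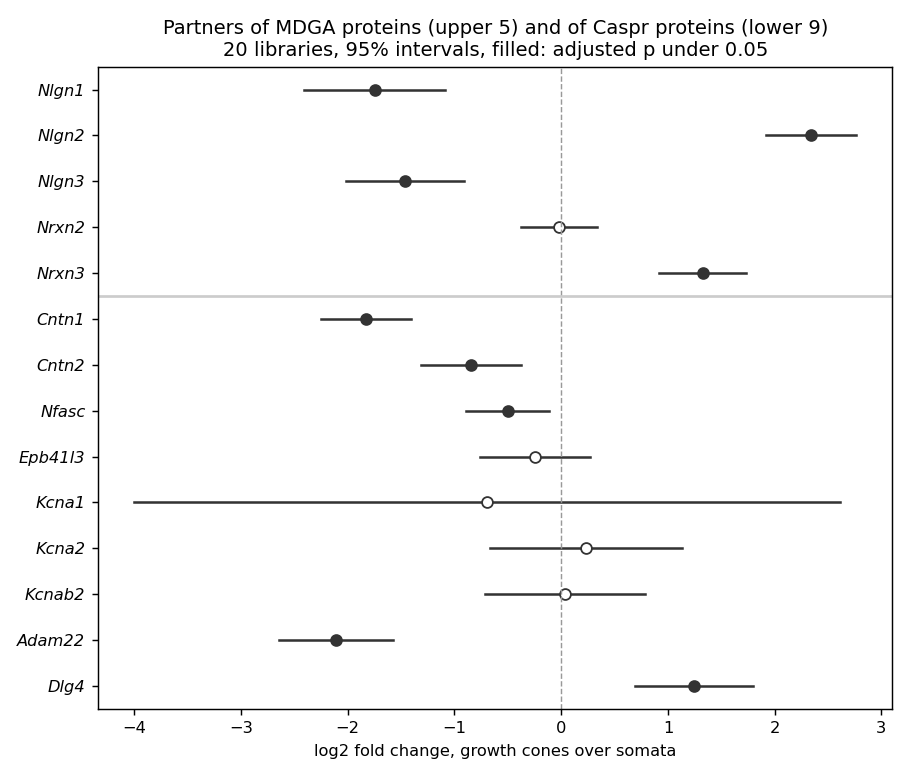
Log2 fold changes between growth cones and somata over all 20 libraries from edgeR, with 95% intervals, for 14 partner genes of the MDGA (upper) and Caspr (lower) proteins, with filled points for FDR under 0.05. Nlgn2 at 2.34 lies farthest above 0 and Adam22 at -2.11 farthest below.

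Between genotypes 0 of the 14 partner genes were called by edgeR in either compartment. In somata, Nlgn1 and Adam22 did not overlap between genotypes, that is 2 of 14, where 3.17% of genes had no overlap. Nlgn1 averaged 184 ± 20.5 CPM in somata labelled KO and 143 ± 11.3 in WT (edgeR FDR 0.208). Adam22 averaged 105 ± 10.5 and 67.4 ± 19.5 CPM (edgeR FDR 0.246).

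Genes whose levels varied most like each member were sought over the 20 libraries, after centring each gene on its compartment mean. The measure was Pearson's r of log2 CPM among 10737 genes. It is given as a description, because the genes named are the top 2 of 10737 for each member in these same libraries. Mdga1 was nearest to Tbc1d1 (r = 0.775) and Appl2 (0.752), a likeness of the somata (0.903 and 0.857) more than of the growth cones (-0.12 and 0.309). Mdga2 was nearest to Metap1 (0.850), in both compartments, and to Dyrk3 (0.799), at 0.397 in somata and 0.851 in growth cones. Cntnap1 was nearest to Ccdc82 (0.918) and Ruvbl1 (0.870), which rests on growth cones, since somata held 1 count. Cntnap2 was nearest to Dact1 (0.777) and Nefm (0.776), a neurofilament gene. Cntnap4 was nearest to Prkacb (0.838), a catalytic subunit of protein kinase A, and Tmx4 (0.795). Cntnap5a was nearest to Cand2 (0.874) and Exoc5 (0.874), a subunit of the exocyst, at 0.379 and 0.485 in somata and 0.907 and 0.905 in growth cones.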

How the data were processed

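The authors deposited raw counts per gene, 1 column for each library without scaling, in featureCounts layout per the file headers. Per the submitters' processing notes, Trimmomatic 0.39, STAR 2.7.1a and featureCounts 1.5.0 were used, and GRCm39 is named. The table's coordinates are those of GRCm38: 98.2% of exon lists equal GENCODE M21, which gave the symbols. Strand use and multimapping are not given in the sources used here. Per the labels' protocols, SMART-seq v4 cDNA was made from 1.8 to 3.1 ng RNA (somata) or 0.19 to 3.1 ng (growth cones), without molecular identifiers, so counting intervals cover counting error only.

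Libraries were grouped by title. All 20 columns were matched to a sample and 0 were left over. Replicates differed beyond sampling noise (smallest chi-square per degree of freedom 52.7 over 40 pairs), so none were merged. Differences were tested with edgeR 4.0.16 in R 4.3.3 (filterByExpr, minimum count 10, TMM, quasi-likelihood test, Benjamini-Hochberg over all genes, threshold 0.05) using only the groups compared, or all 20 libraries for the interaction and the joint compartment test. The fits of genotype in somata, of compartment in WT and of the interaction were run on simulated data. The simulated spread was less than that of most members here, and the other comparisons were not simulated. It therefore does not measure the power to see changes in the members. Levels are CPM with TMM over the 20 libraries, and marker sums use library totals. Genes below the filter, and Bcl11b, had exact permutation tests on log2(CPM + 0.5) over 252 regroupings. Alternatives were DESeq2 1.42.0, DESeq2 size factors, upper-quartile scaling, no filter, a replicate block, a fit of all libraries, a pseudocount of 1 and leaving out each library.

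Named genes were the 6 members, the other 3 Caspr genes, 2 partner lists (values for up to 4 called genes by lowest p), and for each member the 2 genes most like it (mean of at least 5 CPM, prior count 2, identifier-only symbols skipped). A gene of the partner lists is not reported here. Nfasc, Nlgn1 and Adam22 are also named for results seen in the data. Marker sums without Bcl11b or Npy, and count ratios without 1 library, were added after seeing the data. The members and lists were chosen with earlier results of these data known.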

Additional observations from a re-analysis of the deposited data

Results flagged for a closer look

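Each of 23 groups of 5 libraries in which a member varied was searched for a library apart from the other 4 (gap to the nearest divided by the range, against Dixon's critical value of 0.71), and chance gives about 1 in 20. Both libraries found were of Cntnap1, and the first is fixed by its form, since any single count among 4 zeros passes. In somata labelled KO, library 14 stood at 0.0262 CPM, from 1 count, while the other 4 had 0. In growth cones labelled KO, library 10 stood at 2.59 CPM, while the other 4 stood at 0 to 0.434 CPM.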

How the results depend on the processing

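Over 33 results on the members and 620 alternatives, 598 kept direction and side of the threshold, 6 lost a call, 3 gained one and 13 changed sign, all 13 in genotype differences that were never called. The number of genes called between genotypes in somata, 109, was 393 with DESeq2, 34 with the replicate block, 30 in the fit of all 20 libraries, and 67 (without soma 22 labelled KO) to 107 when 1 library was left out (68 without WT soma 22). In growth cones, 0 genes became 11 with DESeq2 and 7 in the fit of all 20 libraries. The interaction's 7 genes became 262 with DESeq2, 0 with the replicate block, and 5 to 12 when 1 library was left out (12 without WT growth cone 7, 11 without growth cone 7 labelled KO). The Cntnap1 difference between compartments in libraries labelled KO was 0.50 to 1.16 when 1 library was left out (exact permutation p up to 0.0873). Changes of sign, on the log2 scale, were as follows when 1 library was left out: Mdga2 in somata -0.11 to 0.16, Cntnap4 in somata -0.065 to 0.38, Cntnap5a in somata -0.036 to 0.20, Mdga1 in growth cones -0.34 to 0.32, Cntnap2 in growth cones -0.087 to 0.24, and Bcl11b in growth cones -0.16 to 0.090. With the replicate block, Mdga2 in somata was -0.052 and Mdga1 in growth cones 0.20. The cause was not tested. Mdga1 between compartments, called over all 20 libraries, was 1.45 to 1.86 when 1 library was left out.

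Upper-quartile scaling moved the median of all genes' log2 fold changes between compartments from 0.12 to 0.37 (WT 0.07 to 0.28, libraries labelled KO 0.11 to 0.31), and the share of calls that were higher in growth cones from 54.5% to 63.3%. No member changed direction between compartments under the 2 other scalings. Experiment numbers shared by the genotypes were not taken as pairs, since the labels do not say what they mark. The main genotype fits therefore leave out any effect that same-numbered libraries share. Likeness between them is described here and was not tested. In growth cones, same-numbered deviations correlated at 0.02 to 0.10 (5 pairs) and other pairs at -0.07 to 0.06. There 8 of 10 libraries were nearest to their own number. In somata these ranges were -0.01 to 0.11 (4 pairs) and -0.13 to 0.09, with 5 of 8 nearest to their own number. Counts of under 100 per library limit Cntnap1.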
